A study of Schmidtea mediterranea with 40 samples.

Results

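At posterior-facing wounds of the planarian *Schmidtea mediterranea*, 8 of 28742 assembled contigs (0.0278%) passed a rule for a peak in control RNAi. Their mean in the libraries labelled 48 hours post-amputation (hpa) was at least 2 times that at each other labelled time. The 8 contigs were chosen by their measured counts. CPM (a contig's reads for every 1000000 reads that its library had counted) were averaged over the control RNAi libraries of each labelled time at posterior-facing wounds. A contig was kept where the mean of the libraries labelled 48 hpa was at least 3 CPM and at least 2 times each of the 4 means labelled 0, 6, 18 and 24 hpa. The 16 control libraries that chose the contigs are therefore described without a test, and the groups tested are confined to the 24 libraries that the choice did not use. An alternative fit of all 12 groups also drew on the 16 control libraries for its filter, scaling and spread.

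Animals of the clonal asexual strain CIW4 were fed double-stranded RNA against *activin-2*, which encodes a ligand of the TGF-β family, or, as control RNAi, against *unc-22*, the u22 of the labels. Both arms had 4 feedings over 14 days and were cut 7 days after the last one. Each library holds poly(A) RNA of postpharyngeal tail tissue pooled from 5 wounds, with 3 libraries in each arm for the labels 0, 6, 24 and 48 hpa, and 4 for each orientation of the wound in each arm at 18 hpa. Anterior-facing wounds were sampled at 18 hpa only. No orientation is on the labels of the earliest libraries, which are taken as posterior-facing from the methods of the study. The labels do not state which libraries come from separate animals, so that p-values measure the spread between these libraries.

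Amputation in planarians starts a transcriptional program within hours, much of it common to all wounds, in muscle, epidermis, gut and in the neoblasts, the dividing stem cells that supply all new tissue. Many of its genes peak early and wane, while a second phase at wounds with missing tissue brings neoblasts to the cut. The program holds transcription factors such as *runt-1* and *egr-2*, signals such as *notum*, and stress, signalling and metabolic genes with less studied roles.

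The 8 contigs fall into several kinds of gene. The transcription factor among them is *runt-1* (contig dd_16222), whose product binds DNA through a Runt domain and which in planarians acts in neoblasts near wounds during the specification of new cell types. Of the enzymes, dd_2394 matches the human cytochrome P450 CYP2J2, a family that oxidises lipids and foreign compounds, dd_8029 matches PHYHD1, a dioxygenase related to the enzyme that starts phytanic acid breakdown, and dd_15647 matches SULT1C3, a sulfotransferase. Contig dd_4944 codes for calcium-binding EF-hand domains and has no human match in the deposited annotation. The human match of dd_21069 is SYTL2, a C2 domain protein of vesicle transport in human cells, and that of dd_15499 is the calcitonin receptor CALCR, a G protein-coupled receptor of the secretin family. The remaining contig, dd_14011, carries no annotation.

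What most of them share, beyond the counts that chose them, is a place on the study's list of wound-induced genes, which was drawn from earlier work by other measurements. Of the 8 contigs, 7 (87.5%) are on this list of 127 contigs (5.51% of the list), and dd_14011 is not. Of the 12621 contigs with a control mean of at least 3 CPM at label 48, 64.7% have a human match in the annotation, against 6 of the 8. In the deposited cell cluster annotation, *runt-1* and dd_15499 are listed with gut and dd_8029 with neoblasts, and the other 5 have no cluster. None of the 8 is among the 1083 muscle-annotated or 306 neural-annotated contigs. By Pfam family, *runt-1* is 1 of 432 transcription factors and dd_15499 is 1 of 392 G protein-coupled receptors, while the 77 secreted signals and receptors, the 165 TRAF domain contigs, the 122 heat shock contigs and the 76 cell cycle contigs gave 0 of the 8. As only 0.0278% of all contigs were chosen, 0 of the 8 in lists of these sizes says nothing about those families or cell types.

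Libraries were counted at 2524235 to 13381025 reads. The shallowest is *activin-2* RNAi replicate 3 labelled 48 hpa, in which 1 read corresponds to 0.396 CPM, and the next had 5398432. At the labels 0, 6, 24 and 48 hpa the targeted transcript had 2.25 to 5.55 CPM after *activin-2* RNAi, against 30.3 to 54.0 CPM in control RNAi. At 18 hpa it was 25.8 to 85.8 CPM in *activin-2* RNAi against 27.1 to 31.9 CPM in control RNAi at anterior-facing wounds, and 3.63 to 70.1 against 33.4 to 44.3 CPM at posterior-facing wounds, so the target was not lower at anterior-facing wounds and overlapped between the arms at posterior-facing wounds. The 8 libraries of 18 hpa that carry the label *activin-2* are therefore called by that label, and each direction drawn from them rests on it. The neoblast gene *smedwi-1* and the muscle gene *myoD* were counted in every group, at medians of at least 574 and 10.9 CPM.

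The times used here are those on the labels. Over them, the summed level of the 120 other wound-induced contigs at posterior-facing wounds had medians of 8759, 6521, 11053, 6253 and 10280 CPM in *activin-2* RNAi at labels 0, 6, 18, 24 and 48. In control RNAi the medians were 8618, 7408, 11042, 5057 and 11892 CPM in the same order. Abundant contigs weigh most in such a sum. The heat shock contig dd_320 alone had means of 3319 CPM in *activin-2* RNAi and 3762 CPM in control RNAi at label 48. The summed level goes down, up, down and up again along the labels in both arms. Whether the labels match the hours of sampling was not tested. A peak at label 48 can therefore not be told apart from a peak at another hour under exchanged labels.

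**Figure D1:**
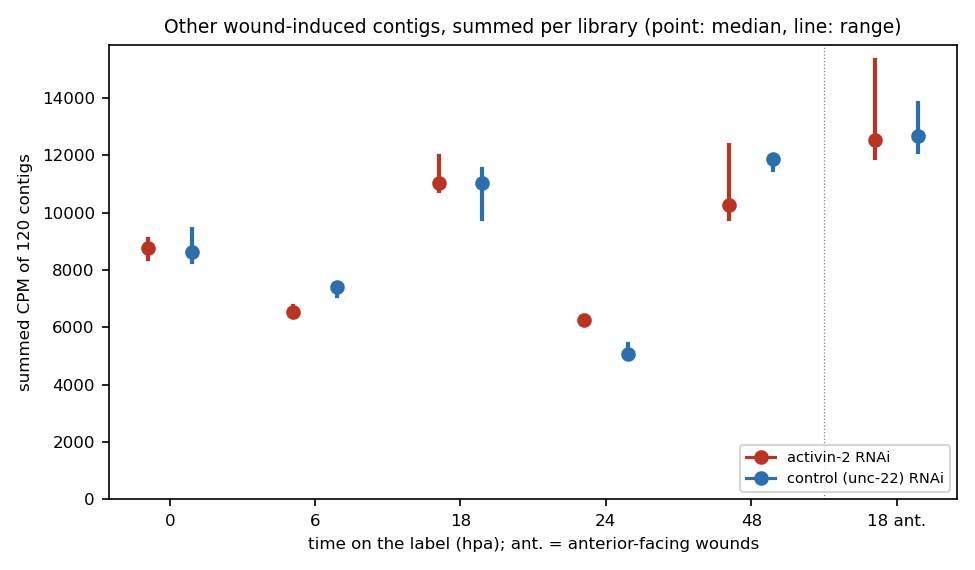
Summed CPM (vertical axis) of the 120 wound-induced contigs outside the 8, by time on the label (horizontal axis), with *activin-2* RNAi in red left of control RNAi in blue, points for medians over libraries and lines for the range. At posterior-facing wounds both arms are lowest at label 24, with medians of 6253 and 5057 CPM, and anterior-facing wounds, right of the dotted line, reach 12527 and 12669 CPM.

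In control RNAi, whose posterior-facing libraries chose the contigs, the means at label 48 were 85.3 CPM for dd_4944, 36.0 for dd_2394, 32.2 for dd_8029, 12.6 for *runt-1*, 11.5 for dd_15647, 10.2 for dd_21069, 9.07 for dd_14011 and 7.02 for dd_15499. They exceeded the next highest posterior mean by 3.54 times for dd_4944, 2.64 times for dd_21069, 2.36 times for dd_8029 and 2.32 times for *runt-1*. For dd_2394 and dd_14011 the ratio was 2.29, and dd_15647 and dd_15499, at 2.02 and 2.01, were the contigs just inside the rule. The next highest label was 0 hpa for *runt-1*, dd_15647 and dd_15499, 6 hpa for dd_21069 and dd_14011, 18 hpa for dd_4944 and dd_8029, and 24 hpa for dd_2394. Each contig had all 3 of its control libraries at label 48 above the 13 other posterior control libraries. These libraries chose the contigs, so this separation is not independent of the choice, and its share over all contigs was not counted.

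The contigs just outside were dd_8930 (10.3 CPM, ratio 1.98), the zinc finger gene *egr-2* (dd_9273, 65.4 CPM, 1.96) and the TRAF gene dd_4392 (161 CPM, 1.91), and all 3 are on the wound-induced list. In all, 18 contigs had a ratio between 1.5 and 2, among them *noggin-like-1* (dd_14068, ratio 1.74), *fascin-1* (dd_996, 1.61) and *inhibin-1* (dd_7607, 1.57). On the side of the minimum mean, no contig with a ratio of 2 lay between 7.02 CPM and dd_40721 at 0.632 CPM, followed by dd_35227 at 0.482 and dd_48368 at 0.413 CPM. The list is short at this ratio and changed with it, to 1 contig (dd_4944) at a ratio of 3 and to 26 contigs at a ratio of 1.5. It held 14 contigs when CPM were scaled by TMM factors, with all 8 among them.

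The *activin-2* RNAi libraries took no part in the choice and answer whether the same contigs peaked at the same label in another set of wounds. All 8 had their highest posterior mean at label 48 there too. Among contigs of at least 3 CPM at that label, this held for 13.2% of all and for 35.4% of the others on the wound-induced list. Within the 8, the rises are ordered here by the ratio to the next highest posterior mean. By it the rise was largest for dd_4944, *runt-1* and dd_2394 and smallest for dd_15499 and dd_8029. The ratio of the mean at label 48 to the next highest was 4.70 for dd_4944, 4.06 for *runt-1*, 3.17 for dd_2394 and 2.37 for dd_15647, and these 4 pass the whole rule in this arm. It was 1.92 for dd_21069, 1.69 for dd_14011, 1.37 for dd_15499 and 1.33 for dd_8029.

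Applied to *activin-2* RNAi alone, the rule finds 8 contigs, so the 4 shared ones are 50.0% of either list. The 4 found only there are the TRAF gene dd_4392 (127 CPM at label 48), the Wnt antagonist *sfrp1* (dd_13985, 7.38 CPM), the receptor dd_20048 of the rhodopsin-like family (4.90 CPM) and dd_13594 (3.32 CPM), which has no annotation. In control RNAi dd_4392 and dd_20048 had ratios of 1.91 and 1.71, *sfrp1* of 0.95 and dd_13594 of 0.01. That dd_13594 peaked in 1 arm was not tested.

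**Figure D2:**
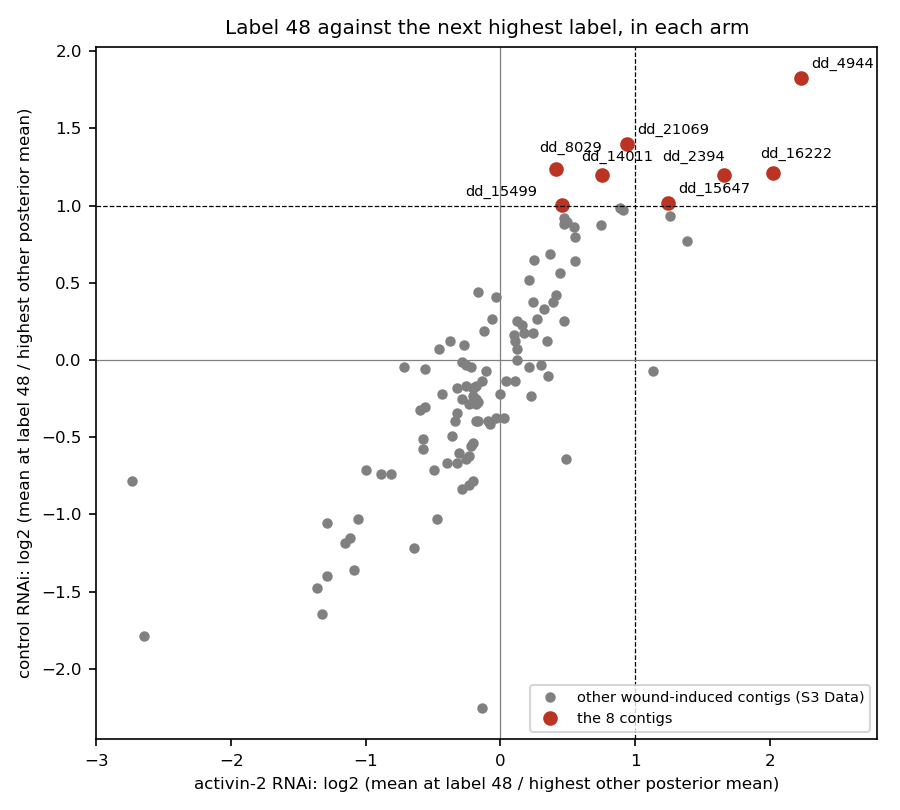
For each contig, log2 of the mean CPM at label 48 over the highest other posterior mean, in *activin-2* RNAi (horizontal axis) and control RNAi (vertical axis), with the 8 contigs in red, 105 other wound-induced contigs of at least 3 CPM at label 48 in both arms in grey, and dashed lines at a ratio of 2. The 8 lie above the upper dashed line because that ratio chose them, while along the other axis they spread between ratios of 1.33 and 4.70, and 29 of the 105 other contigs are above a ratio of 1 in both arms.

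Contig dd_4944, with the EF-hand domains, was the most abundant of the 8. In *activin-2* RNAi it was counted at 46.4, 62.6 and 63.0 CPM at label 48. In the same arm it was at 10.3, 11.7 and 13.3 CPM at label 0, at 9.69, 10.6 and 10.9 at label 6, at 10.8 to 13.4 over the 4 libraries of label 18 and at 10.2 to 12.5 at label 24. The 13 other posterior libraries thus lie in a narrow band and do not overlap with label 48. The log2 fold change of label 48 was 2.32 over label 0 (standard error 0.15, adjusted p = 4.45e-05 by edgeR), 2.49 over label 6 (adjusted p = 5.04e-05), 2.33 over label 18 (adjusted p = 9.53e-08) and 2.41 over label 24 (adjusted p = 1.15e-05). No alternative or left-out library changed these 4 calls. In control RNAi the 3 libraries at label 48 had 95.9, 81.8 and 78.0 CPM, and the 13 others had 12.9 to 26.2.

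The transcription factor gene *runt-1* is the 1 contig of the 8 that fell below 1 CPM in any library. Its counts in *activin-2* RNAi at label 48 were 23.2, 43.2 and 27.7 CPM. They were 3.08, 17.6 and 2.49 CPM at label 0, 1.24, 1.87 and 1.75 at label 6, 3.18 to 5.64 at label 18, and 0.772, 0.498 and 0.341 at label 24, where they rest on 4 to 9 reads per library. Label 48 is above all others, label 24 is lowest, and replicate 2 of label 0 is apart from its group. On the log2 scale label 48 was higher than label 6 by 4.31 (standard error 0.26, adjusted p = 6.74e-05 by edgeR), than label 18 by 3.03 (standard error 0.21, adjusted p = 9.61e-07) and than label 24 by 5.89 (standard error 0.31, adjusted p = 4.27e-06). Over label 0 the log2 fold change was 2.07 (standard error 0.53) and was not called (adjusted p = 0.102). Without replicate 2 of label 0 it was 3.54 (adjusted p = 8.48e-05), and with the replicate block it was called (adjusted p = 3.45e-05). In control RNAi *runt-1* was at 12.9, 13.2 and 11.6 CPM at label 48 and at 0.318, 0.827 and 0.592 CPM at label 24.

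The cytochrome P450 contig dd_2394 was at 12.2, 27.8 and 30.9 CPM in *activin-2* RNAi at label 48. It was at 7.15, 5.09 and 10.1 CPM at label 0, 7.83, 5.24 and 4.09 at label 6, 1.73 to 5.35 at label 18 and 8.84, 2.49 and 7.41 at label 24. Replicate 1 of label 48 stands just above the highest of the others, and the spread within groups was wide in both arms. Label 48 was higher than label 0 (log2 fold change 1.65, standard error 0.32, adjusted p = 0.0284 by edgeR), label 6 (2.03, standard error 0.35, adjusted p = 0.0315) and label 18 (2.67, standard error 0.32, adjusted p = 9.60e-05). Over label 24 it was 1.89 (standard error 0.39, adjusted p = 0.0519). The calls over labels 0 and 6 were each lost in 5 or more of the alternatives, with adjusted p up to 0.0834 and 0.174. In control RNAi it was at 40.4, 35.1 and 32.4 CPM at label 48, and the others reached from 2.18 to 21.2 CPM.

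The sulfotransferase contig dd_15647 had 9.76, 12.6 and 12.3 CPM in *activin-2* RNAi at label 48. It had 4.16, 4.62 and 3.25 CPM at label 0, 1.63, 2.77 and 1.92 at label 6, 2.65 to 3.68 at label 18 and 5.06, 4.28 and 5.28 at label 24, all below label 48. The log2 fold change was 1.55 over label 0 (adjusted p = 0.00382 by edgeR), 2.47 over label 6 (adjusted p = 0.00208), 1.95 over label 18 (adjusted p = 1.11e-05) and 1.27 over label 24 (adjusted p = 0.00551), with standard errors of 0.18 to 0.24. Without replicate 2 of label 24 the last of these was just not called (adjusted p = 0.0506). The 3 control RNAi libraries of label 48 averaged 11.5 ± 0.744 CPM (SD).

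The other 4 contigs had log2 fold changes of 0.50 to 1.58. The PHYHD1 match dd_8029 was at 27.7, 31.5 and 19.8 CPM in *activin-2* RNAi at label 48, and label 24, at 18.4, 18.7 and 22.5 CPM, overlaps with it. It was called higher over label 6 (log2 fold change 1.52, adjusted p = 0.00587 by edgeR) and label 18 (1.04, adjusted p = 2.28e-04), and its log2 fold changes over labels 0 and 24 were 0.69 (adjusted p = 0.0542) and 0.50 (adjusted p = 0.164). The replicate block turned the first of these into a call (adjusted p = 0.00582). The SYTL2 match dd_21069 was at 7.72, 5.94 and 7.92 CPM at label 48, above its 13 other posterior libraries, which reached 4.48 CPM. It was called over label 6 (1.58, adjusted p = 0.0310, lost in 5 of the alternatives with adjusted p up to 0.189) and label 18 (1.14, adjusted p = 0.00156), with 1.18 over label 0 (adjusted p = 0.0621, and 0.00960 with the replicate block) and 0.96 over label 24 (adjusted p = 0.0955).

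The contig without annotation, dd_14011, was at 6.65, 6.32 and 5.15 CPM at label 48 in *activin-2* RNAi, and its other posterior libraries reached 3.97 CPM. It was called over label 18 (log2 fold change 1.22, standard error 0.21) and label 24 (1.25, adjusted p = 0.0207 by edgeR). The call over label 24 was lost without any of the 3 libraries of label 24 or without replicate 1 of label 48. Over labels 0 and 6 its log2 fold changes were 1.00 (adjusted p = 0.0705, and 0.0238 with the replicate block) and 0.82 (adjusted p = 0.142). The CALCR match dd_15499 passed in none of the 4, with 2.79, 8.02 and 4.75 CPM at label 48 and log2 fold changes of 0.62 to 1.42 (adjusted p from 0.108 to 0.389). Whether it was called turned on single libraries of label 48. Without replicate 2, the high value, the log2 fold change over label 18 was -0.03, and without replicate 1, the low value, it was 1.00 and called (adjusted p = 0.00418), as was that over label 24 (1.78, adjusted p = 0.0340). In control RNAi this contig was at 7.00, 7.03 and 7.04 CPM at label 48, from 73 to 91 reads per library.

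**Figure D3:**
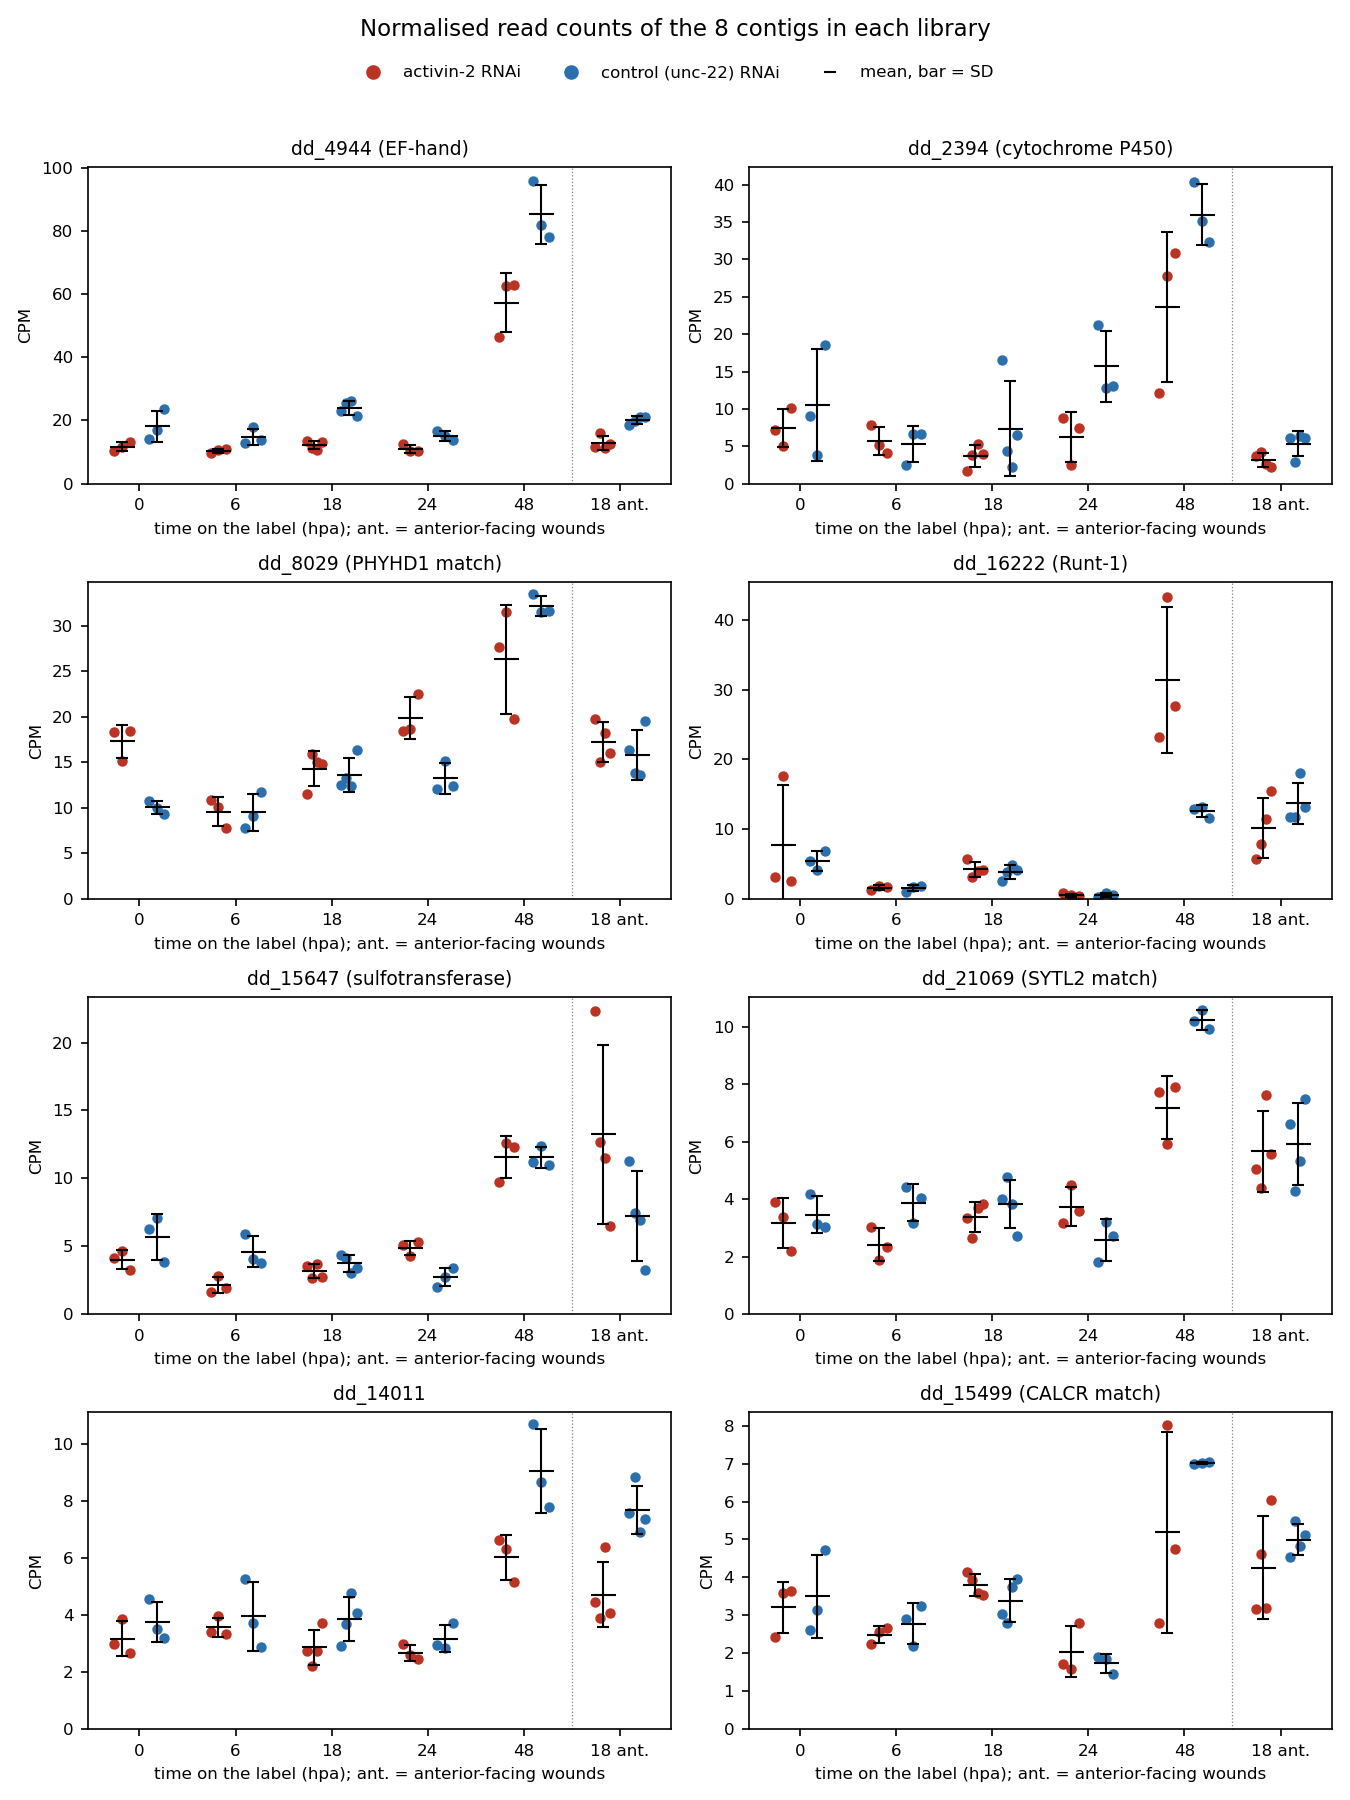
CPM (vertical axes, each from 0) of the 8 contigs in each of the 40 libraries, by time on the label, with *activin-2* RNAi in red left of control RNAi in blue, black marks for the mean and bars for the SD, and anterior-facing wounds right of the dotted line. Label 48 is highest among posterior-facing wounds in every panel, and *runt-1* and dd_15647 are also high at anterior-facing wounds, with means of 10.2 and 13.2 CPM in *activin-2* RNAi.

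Over all 8, edgeR called 3 higher at label 48 than at label 0 in *activin-2* RNAi, beside 0.403% of the 15889 contigs tested. It called 6 higher than at label 6 (0.356% of all tested), 7 higher than at label 18 (15.7%) and 4 higher than at label 24 (0.754%), and 0 of 8 lower. All 8 were higher at an unadjusted p under 0.05 in each comparison, beside 6.24%, 5.77%, 21.3% and 7.85% of all contigs and 34.7%, 47.0%, 37.6% and 72.6% of the other wound-induced contigs, in the order of the labels. The counts over labels 0 and 24 moved with the setting. Over label 0, where 64 of all contigs were called higher, 7 of the 8 were called with the replicate block (363 of all contigs), 5 by DESeq2 (106) and 6 without replicate 2 of label 48 (499). Over label 24, where 122 of all contigs were called higher, 7 of the 8 were called with no filter (245 of all contigs), 8 with all 12 groups in 1 fit (752), 6 without replicate 2 of label 48 (837) and 2 without replicate 2 of label 24 (44). Contigs dd_4944 and dd_15647 were called in all 4 comparisons, as were 7 of the 115 other wound-induced contigs tested in each (6.09%). Of all 15528 contigs tested in each, 11 were (0.0708%), and 9 of these 11 (81.8%) are on the wound-induced list. This count of 2 was 5 with no filter and 7 with all 12 groups in 1 fit, which includes the control libraries that chose the contigs. The comparison with label 18 called the most contigs, with 2589 higher and 2856 lower at label 48. Label 18 has 4 libraries where the other labels have 3. With any 1 of these 4 left out, 3860 to 4310 contigs were still called. The reason for the larger number was not tested. Label 18 was not compared with labels 0, 6 and 24. Leaving that comparison out, dd_4944 and dd_15647 were again the 2 called in the other 3, beside 0.0767% of all contigs.

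For 6 of the 8 contigs every label 48 library of *activin-2* RNAi was above all 13 other posterior libraries of that arm. This held for 0.863% of the contigs tested and for 17 of the 115 other wound-induced contigs tested (14.8%). The exceptions were dd_8029 and dd_15499, each with 2 of its 3 libraries above. The median log2 fold change of the 8 was 1.36 over label 0, 1.81 over label 6, 1.58 over label 18 and 1.34 over label 24, while that of all contigs tested lay between -0.02 and 0.01.

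**Figure D4:**
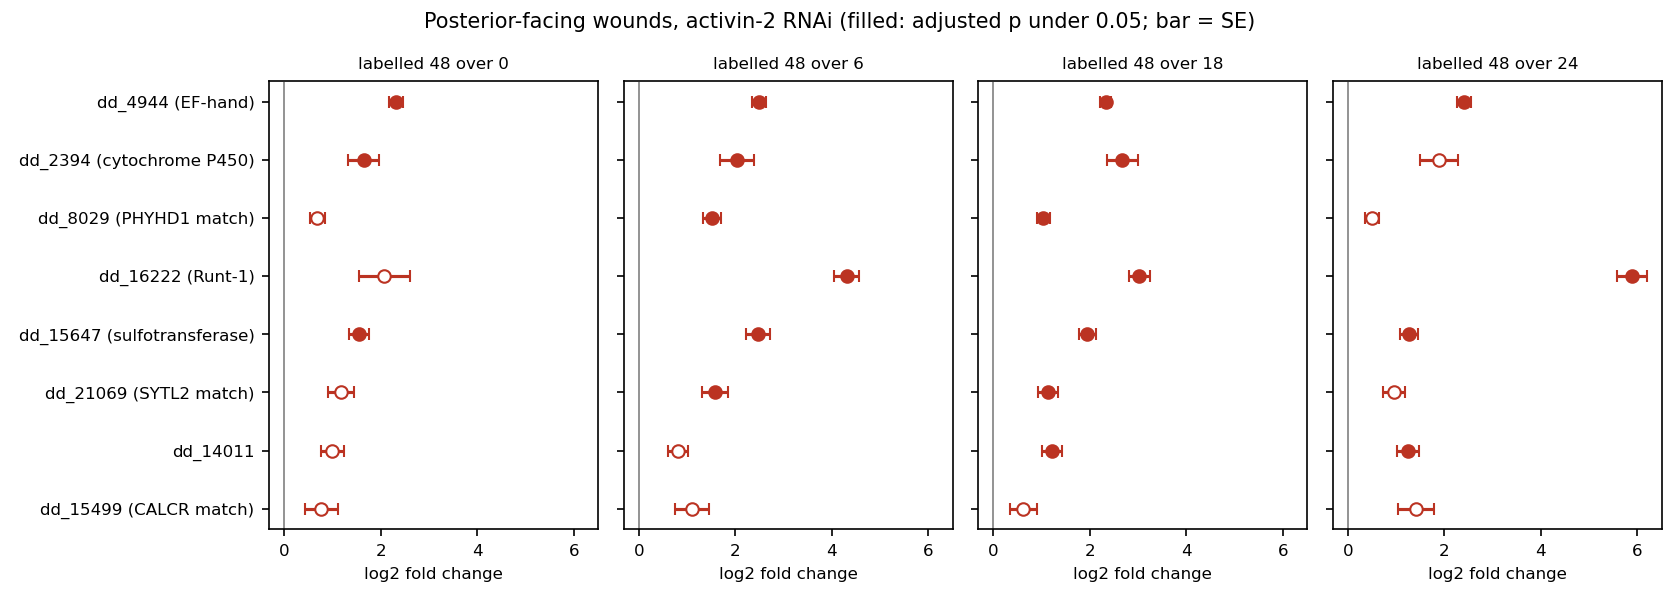
Log2 fold change (horizontal axes) of label 48 over labels 0, 6, 18 and 24 for the 8 contigs, at posterior-facing wounds after *activin-2* RNAi, with the standard error as bars and filled points for an adjusted p under 0.05. Every point lies right of 0, from 0.50 for dd_8029 over label 24 to 5.89 for *runt-1* over label 24.

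The rest of the wound-induced list was counted in the same way. Of its contigs outside the 8, edgeR called 15 of 118 higher at label 48 than at label 0 in *activin-2* RNAi (12.7%, and 7 lower), 23 of 117 higher than at label 6 (19.7%, and 6 lower), 39 of 117 higher than at label 18 (33.3%, and 16 lower) and 43 of 117 higher than at label 24 (36.8%). Their median log2 fold changes were 0.13, 0.38, 0.07 and 0.67 in that order, below those of the 8. Among contigs of at least 3 CPM at label 48, that label had the highest posterior mean for 40 of the 113 others on the list in *activin-2* RNAi (35.4%) and for 13.2% of all contigs. In control RNAi this held for 38 of 106 others (35.8%) and for 8.17% of all contigs.

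By Pfam family in *activin-2* RNAi, label 48 was the highest for 11 of 54 secreted signals and receptors (20.4%), for 47 of 231 transporters (20.3%), for 44 of 242 channels and gap junctions (18.2%), for 17 of 99 peptidases (17.2%), for 14 of 111 TRAF domain contigs (12.6%), for 13 of 269 transcription factors (4.83%) and for 2 of 52 cell cycle contigs (3.85%). No test was made between these families.

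In bulk tissue, more cells of a type and more RNA per cell cannot be told apart. The summed level of the 924 gut-annotated contigs was 114121 to 126666 CPM in *activin-2* RNAi at label 48 and 102364 to 123354 CPM in the other posterior libraries of that arm, and *runt-1* and dd_15499 are of this list. The 470 neoblast-annotated contigs, of which dd_8029 is one, summed to 5990 to 6988 CPM at label 48 and to 6215 to 7689 CPM in the others, and *smedwi-1* was 648 to 877 CPM at label 48 and 704 to 1069 CPM in the others. The part of either cell type in the levels of the 8 contigs was not tested.

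At 18 hpa in the libraries labelled *activin-2*, *runt-1*, dd_15647, dd_21069 and dd_14011 were higher at anterior-facing than at posterior-facing wounds, and the other 4 were not called. No test of a difference between contigs was made. Contig dd_15647 was at 22.3, 12.7, 11.5 and 6.51 CPM at anterior-facing wounds, against 3.57, 2.65, 3.68 and 2.75 CPM at posterior-facing wounds, with no overlap (log2 fold change 2.02, standard error 0.31, adjusted p = 4.07e-04 by edgeR). For *runt-1* the values were 5.66, 7.93, 11.5 and 15.5 CPM at anterior-facing wounds, against 5.64, 3.18, 3.93 and 4.12 CPM at posterior-facing wounds (1.28, standard error 0.27, adjusted p = 0.00391). Its lowest anterior-facing library lies only just above the highest posterior-facing one.

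Smaller differences were those of dd_21069, with 4.38 to 7.64 CPM at anterior-facing wounds against 2.65 to 3.82 CPM at posterior-facing wounds (log2 fold change 0.70, adjusted p = 0.0185 by edgeR), and of dd_14011, with 3.91 to 6.39 against 2.23 to 3.73 CPM (0.67, adjusted p = 0.0362). Both calls were lost without replicate 3 of the anterior-facing or replicate 2 of the posterior-facing libraries, where 2 of the 8 were called. That of dd_14011 was lost in 7 alternatives, among them DESeq2 (adjusted p = 0.0620) and the replicate block (adjusted p = 0.0518 by edgeR). The log2 fold changes of the uncalled 4 were 0.24 for dd_8029, 0.19 for dd_15499, 0.07 for dd_4944 and -0.28 for dd_2394, with adjusted p from 0.168 to 0.773. In this comparison 8.88% of all contigs were called higher and 9.51% lower at anterior-facing wounds. Of the other wound-induced contigs, 41 of 118 were called higher (34.7%) and 11 lower.

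In control RNAi, where the posterior-facing libraries took part in the choice, the orientations are given without a test. The anterior-facing libraries had 11.8, 11.8, 18.0 and 13.2 CPM of *runt-1*, against 2.55, 3.89, 4.87 and 4.08 CPM at posterior-facing wounds. Contig dd_14011 had 6.93 to 8.87 CPM at anterior-facing against 2.91 to 4.79 CPM at posterior-facing wounds, and dd_15499 had 4.55 to 5.50 against 2.79 to 3.97 CPM, in both cases without overlap. Contig dd_4944 was at 18.5 to 21.0 CPM at anterior-facing and at 21.4 to 26.2 CPM at posterior-facing wounds, the reverse order. The orientations overlapped for dd_15647, at 3.25 to 11.3 CPM at anterior-facing against 3.05 to 4.37 CPM at posterior-facing wounds. They also overlapped for dd_21069, at 4.28 to 7.49 against 2.72 to 4.78 CPM, and for dd_8029 and dd_2394. The *runt-1* mean at anterior-facing wounds of 18 hpa, 13.7 CPM, was close to the 12.6 CPM of posterior-facing wounds at label 48. Among control libraries, label 48 was thus highest for *runt-1* only among posterior-facing wounds. These 2 groups also overlapped for dd_15647 and dd_14011, and label 48 was above for the other contigs. Among libraries labelled *activin-2*, dd_15647 averaged 13.2 CPM at anterior-facing wounds of 18 hpa and 11.6 CPM at posterior-facing wounds of label 48. There the 2 groups overlapped for dd_15647, dd_21069, dd_14011 and dd_15499, and label 48 was above for the others.

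The arms could be compared with a test at anterior-facing wounds, where neither arm chose the contigs. In the libraries labelled *activin-2* there the targeted transcript was not lower (median 38.6 CPM, against 28.8 CPM in control RNAi), so the comparison is one of labelled groups and not of a depletion seen in these counts. Contig dd_4944 was lower, at 11.5, 16.2, 11.3 and 12.5 CPM in the libraries labelled *activin-2* against 18.5, 19.9, 21.0 and 21.0 CPM in control RNAi (log2 fold change -0.66, standard error 0.13, adjusted p = 0.0164 by edgeR). Contig dd_14011 was lower too, at 4.48, 3.91, 6.39 and 4.09 CPM in those labelled *activin-2* against 7.58, 8.87, 6.93 and 7.37 CPM in control RNAi (-0.74, standard error 0.17, adjusted p = 0.0362). Neither contig has overlapping arms. No contig of the 8 was called higher in edgeR's unpaired fit or by DESeq2, and 4 were at an unadjusted p under 0.05, of which dd_15647 alone was higher. Of all contigs, 0.755% were called higher and 1.84% lower, and 5.59% were higher at an unadjusted p under 0.05. The share lower at that unadjusted limit was not counted.

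These 2 calls rest on few libraries. Without replicate 1 or replicate 4 of those labelled *activin-2* 0 of the 8 were called, and without their replicate 2 or 3 or replicate 1, 3 or 4 of control RNAi 1 was. The widest uncalled difference was that of dd_15647, with 22.3, 12.7, 11.5 and 6.51 CPM in the libraries labelled *activin-2* against 11.3, 7.44, 6.93 and 3.25 CPM in control RNAi (log2 fold change 0.85, standard error 0.35, adjusted p = 0.268). Each of these 4 libraries is above the control library of the same number, which is all that is known to link them, and with the replicate block the contig was called higher (adjusted p = 0.00186 by edgeR).

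**Figure D5:**
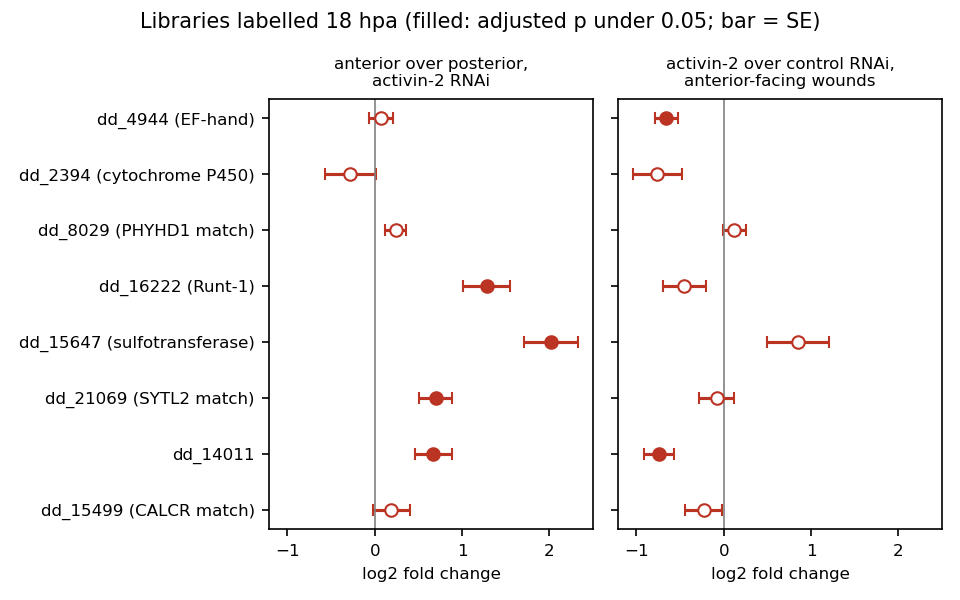
Log2 fold change (horizontal axes) of the 8 contigs in the libraries of 18 hpa, for anterior-facing over posterior-facing wounds in those labelled *activin-2* on the left and for those labelled *activin-2* over control RNAi at anterior-facing wounds on the right, with the standard error as bars and filled points for an adjusted p under 0.05. On the left 4 points are filled, up to 2.02 for dd_15647, and on the right dd_4944 at -0.66 and dd_14011 at -0.74.

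At the other labels the arms share the control libraries that chose the contigs, and their values stand without a test. At label 48 the means of 6 of the 8 were lower in *activin-2* RNAi, such as dd_4944 with 57.3 ± 9.45 CPM in *activin-2* RNAi and 85.3 ± 9.40 CPM in control RNAi (SD, n = 3 each). The exception with a clear gap was *runt-1*, with 31.4 ± 10.5 CPM in *activin-2* RNAi and 12.6 ± 0.877 CPM in control RNAi, 2.49 times as high, and its arms did not overlap. Contig dd_15647 was at 11.6 ± 1.57 CPM in *activin-2* RNAi and 11.5 ± 0.744 CPM in control RNAi. The choice required high control means at label 48, so the 6 lower means are not independent of it.

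Contig dd_4944 had a lower mean in *activin-2* RNAi in each of the 6 pairs of groups. At posterior-facing wounds of 18 hpa it was at 12.2 ± 1.33 CPM in the libraries labelled *activin-2* and 24.1 ± 2.23 CPM in control RNAi (SD, n = 4 each). At label 0 it was at 11.8 ± 1.49 CPM in *activin-2* RNAi and 18.1 ± 4.91 CPM in control RNAi (SD, n = 3 each). The opposite order was seen for dd_8029 at label 0, with 15.2 to 18.4 CPM in *activin-2* RNAi and 9.37 to 10.8 CPM in control RNAi, and at label 24, with 18.4 to 22.5 CPM in *activin-2* RNAi and 12.1 to 15.2 CPM in control RNAi. For dd_15647 the arms separated in both directions, with 1.63 to 2.77 CPM in *activin-2* RNAi against 3.77 to 5.90 CPM in control RNAi at label 6, and 4.28 to 5.28 CPM in *activin-2* RNAi against 2.01 to 3.38 CPM in control RNAi at label 24.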

How the data were processed

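RNA of 40 libraries in 12 groups was sequenced by the authors after stranded poly(A) library preparation. The authors mapped reads to the dd_Smed_v6 transcriptome with bowtie and summed isotig reads per contig, and the deposited read count table holds these raw counts without normalization. The submitters' processing notes list CASAVA 1.9, cutadapt 1.8, Bowtie 1.2, SAMtools 1.6 and DESeq. The deposited table of comparisons gave names, Pfam families and cell clusters, and its log2 fold changes and adjusted p-values, which compare the arms, were not used. No pair of libraries had identical counts.

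CPM are counts divided by the column sum. Pairwise fits used edgeR 4.0.16 under R 4.3.3 (TMM, filter by expression with a minimum count of 10 and total of 15, prior count 0.125, quasi-likelihood test on the 2 groups compared), adjusted by Benjamini-Hochberg over all contigs tested and called under 0.05. The 6 comparisons fitted are those whose libraries did not choose the contigs. Alternatives were DESeq2 1.42.0, RLE normalization, library size only, no filter, a replicate block, a single fit of all 12 groups, leaving out each library, and other thresholds of the rule. The single fit of all 12 groups includes the 16 control libraries that chose the contigs, so its counts are not independent of the choice. The counts over 3 comparisons, over 13 libraries and of the wound-induced list without the members were added after values had been seen. The fits were tested on simulated data. For labels 48 and 0 in *activin-2* RNAi each library of label 48 correlated best with that of the same number, though weakly (correlations of deviations of 0.23, 0.28 and 0.20). In no other comparison was every pair above 0.1. Whether these libraries were paired is not known, and the main fit over label 0 used no block, with 3 of the 8 called against 7 with it. The naming rule (wound-induced members, the most abundant, the highest ratios, those nearest a threshold, the largest calls and the lowest ratios) covers all 8 contigs, and other contigs are named from the threshold, from the same rule in *activin-2* RNAi, or as markers. *egr-2*, *noggin-like-1*, *fascin-1* and *inhibin-1* are among those near the threshold, of which the last 3 were picked after their values were seen. The members and lists were chosen with earlier results of these data known. No sequences are shown.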

Additional observations from a re-analysis of the deposited data

Results flagged for a closer look

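In 32 sets of 4 libraries (8 contigs in the 4 groups of 18 hpa) 1 library stood far from its group, where chance gives about 5%. Contig dd_2394 at anterior-facing wounds of control RNAi was at 2.85 CPM in replicate 2 and at 6.06 to 6.42 CPM in the other 3, a gap of 0.898 of the range, past the critical value of Dixon's test. Without that library the log2 fold change between the arms (*activin-2* over control) was -0.98 and called (adjusted p = 0.0383 by edgeR), against -0.76 (adjusted p = 0.198) with it.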

How the results depend on the processing

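The number of contigs was 1 at a ratio of 3, 26 at 1.5 and 14 on TMM-scaled CPM, and 7 to 10 with each control library left out. In *activin-2* RNAi the rule found 3, 19 and, at a minimum of 10 CPM, 5 contigs, and 6 to 10 with a library left out. Over label 0, 7 members were called with no filter, with the replicate block and with all 12 groups in 1 fit, 5 by DESeq2, and 2 to 6 with a library left out. Over label 24, 7 were called with no filter, 8 with all 12 groups in 1 fit and 2 to 6 with a library left out. With a library left out the ranges were 4 to 6 over label 6, 7 to 8 over label 18, 2 to 4 between orientations and 0 to 2 between arms. All 12 groups in 1 fit gave 8 over label 6, and library size alone gave 1 between arms. The count called over all 4 labels was 5 with no filter, 7 with all 12 groups in 1 fit and 2 to 3 with a library left out. Over the 3 labels without 18 it was also 5 and 7. The count above all 13 libraries was 6 to 7.

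With members by a ratio of 3, 1 was called over each label and between arms and 0 between orientations. By a ratio of 1.5, the called were 10, 12, 24 and 14 over labels 0, 6, 18 and 24, 16 between orientations and 4 between arms. On TMM-scaled CPM they were 6, 10, 13, 9 and, between orientations, 8. With a minimum of 10 CPM, 1 was called between arms. Outside the pair of labels 48 and 0 the replicate block rests on a shared number only, and it called 4 over label 6, 7 over label 18, 5 over label 24, 3 between orientations and 3 between arms, where dd_15647 became higher (adjusted p = 0.00186 by edgeR).

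Of the log2 fold changes of single contigs under alternatives, 530 kept direction and call, 41 lost and 40 gained the call, and 5 uncalled ones turned sign. These were dd_15499 over label 18 (-0.03) and between orientations (-0.05), dd_4944 between orientations (-0.09), and dd_21069 between arms without control replicate 4 (0.05) or *activin-2* RNAi replicate 2 (0.00 after rounding). With each library left out they ran from -0.03 to 1.00, -0.05 to 0.32, -0.09 to 0.12 and -0.24 to 0.05 in that order. The cause of these changes was not tested. Depth limits *runt-1* at label 24 (3 to 9 reads per library) and every contig in the shallowest library.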
